A study of Saccharomyces cerevisiae with 64 samples.

Results

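The 8 genes described here encode the ammonium permeases of Saccharomyces cerevisiae and the enzymes that build ammonium into glutamate and glutamine. They were chosen by name: the ammonium permease genes MEP1 (YGR121C), MEP2 (YNL142W) and MEP3 (YPR138C), the glutamine synthetase gene GLN1 (YPR035W), the NADP-dependent glutamate dehydrogenase genes GDH1 (YOR375C) and GDH3 (YAL062W), the glutamate synthase gene GLT1 (YDL171C) and the NAD-dependent glutamate dehydrogenase gene GDH2 (YDL215C). All 8 of the 8 were among the 6660 genes with values. The study sequenced polyadenylated RNA of S288c cells under sporulation conditions, in 64 samples that make 32 conditions of 2 replicates. The kfc1 mutant without overexpression was sampled at 0, 2, 4, 6, 8 and 12 h, as was wild type without overexpression. The kfc1 mutant with IME1 overexpressed (PzevIME1) and wild type with PzevIME1 were sampled at those hours too. The kfc1 mutant with PzevIME1 and PzevRIM4, and wild type with both, were sampled at 0, 12, 24 and 48 h. Ime1 is the transcription factor at the head of the meiotic programme, and Rim4 is an RNA-binding protein that meiosis requires. The sources used here do not say when overexpression began relative to 0 h. In the titles, all 24 samples of wild type in the arms without overexpression and with PzevIME1 are marked as re-used, without saying from where. In those arms genotype cannot be told apart from whatever came with the re-use.

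Yeast takes up ammonium through the Mep permeases, of which Mep2 has a high affinity and also acts as a sensor in filamentous growth. Gdh1 and Gdh3 join ammonium to 2-oxoglutarate to give glutamate. Gln1 adds a further ammonium to give glutamine. Glt1 splits glutamine with 2-oxoglutarate into glutamate again, and Gdh2 runs in the catabolic direction, releasing ammonium from glutamate. MEP2 and several of the others are nitrogen catabolite repression genes, which GATA factors such as Gln3 and Gat1 turn on when good nitrogen sources run out. Loss of nitrogen is also one of the signals for sporulation.

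The values are log2 ratios made by the authors, 1 per gene and condition with the replicates already combined. No replicate error can therefore be given and no test was run. Unless stated otherwise a value is the log2 ratio to wild type without overexpression at 0 h, and a difference is one such ratio minus another. Ratios give no level, so the genes are not ranked against each other by abundance. A gene met the 2-fold rule when its differences averaged at least 1 in size and had 1 sign at all time points. At a single time only the size was used. Ranges run over time points and are not replicate errors. In RNA from whole cultures, fewer cells that express a gene and less of its RNA per cell cannot be told apart. The deleted gene, taken to be VIR1, which encodes part of the machinery for adenosine methylation of messenger RNA, stood between -9.41 and -4.70 in the 16 kfc1 conditions and between -0.07 and 2.07 in the 16 wild-type conditions.

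The stretches upstream of 6 of the genes are shown because these had the largest ranges over the 32 conditions and because GATA factors bind the letters GATAAG. Each stretch is the 300 bases that end 100 bases ahead of the start codon, 5′ to 3′ on the gene's own strand, from the RefSeq R64 assembly (the assembly behind sacCer3). Capitals mark GATAAG on either strand.
MEP2, chrXIV:357053-357352, plus strand: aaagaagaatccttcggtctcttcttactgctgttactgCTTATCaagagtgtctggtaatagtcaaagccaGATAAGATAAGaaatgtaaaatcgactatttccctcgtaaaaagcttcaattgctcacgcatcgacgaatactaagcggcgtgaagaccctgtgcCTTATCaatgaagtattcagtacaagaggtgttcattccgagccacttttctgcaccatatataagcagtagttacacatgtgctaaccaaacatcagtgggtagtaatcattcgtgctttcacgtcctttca
MEP1, chrVII:733028-733327, minus strand: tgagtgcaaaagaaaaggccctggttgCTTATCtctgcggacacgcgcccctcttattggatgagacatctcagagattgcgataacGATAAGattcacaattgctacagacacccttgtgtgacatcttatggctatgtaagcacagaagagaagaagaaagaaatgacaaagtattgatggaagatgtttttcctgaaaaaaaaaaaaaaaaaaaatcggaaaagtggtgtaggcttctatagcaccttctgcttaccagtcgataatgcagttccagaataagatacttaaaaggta
MEP3, chrXVI:812554-812853, minus strand: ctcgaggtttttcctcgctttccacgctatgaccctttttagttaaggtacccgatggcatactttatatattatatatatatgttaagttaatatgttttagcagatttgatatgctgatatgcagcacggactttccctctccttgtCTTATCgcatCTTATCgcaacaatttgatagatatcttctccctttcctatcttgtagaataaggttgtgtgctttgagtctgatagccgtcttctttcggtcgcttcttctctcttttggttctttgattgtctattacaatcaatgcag
GDH3, chrI:31167-31466, plus strand: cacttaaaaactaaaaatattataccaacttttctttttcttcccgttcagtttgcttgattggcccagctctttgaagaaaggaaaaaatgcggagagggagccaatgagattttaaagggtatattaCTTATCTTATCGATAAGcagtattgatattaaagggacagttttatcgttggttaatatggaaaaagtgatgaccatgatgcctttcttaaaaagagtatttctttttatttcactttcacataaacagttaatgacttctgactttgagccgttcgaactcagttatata
GLT1, chrIV:155741-156040, minus strand: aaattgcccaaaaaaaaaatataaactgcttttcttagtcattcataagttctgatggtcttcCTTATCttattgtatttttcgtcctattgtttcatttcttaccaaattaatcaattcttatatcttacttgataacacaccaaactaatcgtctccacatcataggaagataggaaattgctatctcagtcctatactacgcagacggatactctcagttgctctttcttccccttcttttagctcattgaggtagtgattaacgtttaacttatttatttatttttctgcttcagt
GDH1, chrXV:1043143-1043442, minus strand: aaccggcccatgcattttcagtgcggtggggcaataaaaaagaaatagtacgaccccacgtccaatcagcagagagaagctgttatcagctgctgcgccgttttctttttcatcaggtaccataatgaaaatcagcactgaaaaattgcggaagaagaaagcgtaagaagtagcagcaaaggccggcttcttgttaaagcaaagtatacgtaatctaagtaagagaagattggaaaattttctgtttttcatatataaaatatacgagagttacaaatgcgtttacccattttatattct
The MEP2 stretch held 4 matches, 2 of them overlapping by 1 base between positions -328 and -318, counted from the start codon. GDH3 held 3, of which 2 overlapped, MEP1 and MEP3 held 2 each, GLT1 held 1 and GDH1 held 0. Of 6001 stretches of the same length upstream of coding genes, 13.9% held at least 1 match, 1.47% at least 2 and 0.250% at least 3. The stretches of MEP2 and GDH1 each overlapped 1 other annotated gene. GLN1 and GDH2 held 0 GATAAG and 1 match each to TGACTC, the letters bound by the amino acid regulator Gcn4, which 8.47% of all stretches held on either strand. The longer palindrome of Leu3, a regulator of GDH1, was in 0 of the 8 stretches and in 0.167% of all. A match is a sequence only, and no binding was measured.

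Paralogs among these genes are similar but not identical, which bears on how far reads can be told apart. The coding sequences of GDH1 (chromosome XV, 1041678 to 1043042) and GDH3 (chromosome I, 31567 to 32940) were 77.4% identical over 1361 aligned bases. Their longest run in common, at chrXV:1042519-1042553 on the minus strand in GDH1, was 35 bases:
GDH1 and GDH3: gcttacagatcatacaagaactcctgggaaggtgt
MEP1 (chromosome VII, 731449 to 732927) and MEP3 (chromosome XVI, 810984 to 812453) were 71.9% identical with a longest shared run of 20 bases. MEP2 (chromosome XIV, 357453 to 358952) was 62.2% identical to MEP1 and 65.9% to MEP3. No stretch of 50 bases was shared exactly within any of these pairs. Read length is not given in the sources used here. GLN1 (chromosome XVI, 642208 to 643320), GLT1 (chromosome IV, 149203 to 155640) and GDH2 (chromosome IV, 70640 to 73918) were not compared with a paralog.

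Without overexpression, 3 of the 8 genes were higher in kfc1 than in wild type at 2 to 12 h by the 2-fold rule, and 0 were lower. They were the permease and sensor gene MEP2, the glutamate synthase gene GLT1 and the main NADP-dependent glutamate dehydrogenase gene GDH1. Of the 6482 genes compared, 1.43% were higher and 0.37% lower by the same rule. The median difference of the 8 genes was 0.66, against -0.02 for all genes. Taken hour by hour from 2 to 12 h, it was 1.54, 0.75, 0.74, 0.22 and 0.37, so the gap between the genotypes was widest at the first hour sampled. The number of the 8 at least 2-fold higher in kfc1 was 5, 4, 3, 2 and 2 at these hours, where 4.96%, 2.62%, 2.3%, 1.15% and 0.662% of all genes were. GDH2 at 2 h was at least 2-fold lower, where 4.62% of all genes were, and 0 of the 8 were at the later hours, where 1.82%, 0.878%, 0.539% and 0.292% were.

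**Figure D1:**
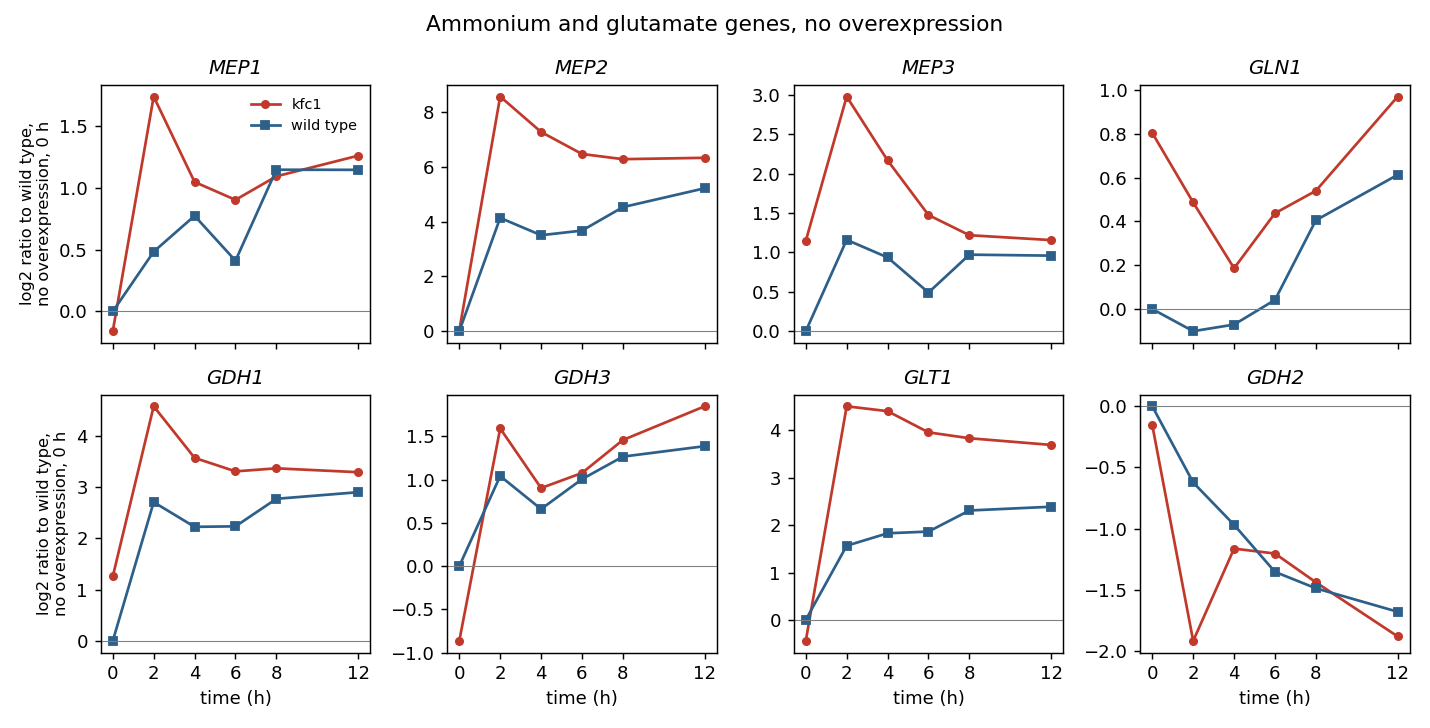
Log2 ratio to wild type without overexpression at 0 h (vertical axis, scaled separately in each panel) against time in hours for the 8 genes without overexpression, in kfc1 (circles) and wild type (squares), each point being the authors' combined value of 2 replicates. MEP2, GLT1 and GDH1 in kfc1 lie above every wild-type point from 2 h on. MEP1, MEP3 and GDH1 come closer to wild type by 12 h.

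MEP2, the permease gene with the largest range, stood at 0.03 in kfc1 at 0 h and at 8.58, 7.28, 6.48, 6.29 and 6.34 over the 5 later times. In wild type it stood at 0 by definition at 0 h and then at 4.14, 3.51, 3.68, 4.54 and 5.23. The lowest later kfc1 value was above the highest wild-type value. How many of all genes were separated in this way was not computed. The mean difference was 2.78 (6.85-fold), from 4.44 at 2 h (21.6-fold) to 1.11 at 12 h, smaller at each later time. MEP2 peaked at 2 h in kfc1 and was highest at 12 h in wild type. Its range over all 32 conditions, 9.18, was larger than that of 99.5% of genes.

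The other permease genes, MEP3 for a low-affinity permease and MEP1, differed less. MEP3 stood at 1.15 in kfc1 already at 0 h and at 2.98, 2.17, 1.48, 1.22 and 1.16 at 2 to 12 h. In wild type it stood at 1.16, 0.94, 0.49, 0.97 and 0.96 over those hours. The mean difference of 0.90 (0.20 to 1.82) missed the 2-fold rule, and met it without the 8 h groups (1.06) or without the 12 h groups (1.07). Measured from its own start, MEP3 was not further up in kfc1 on average, with a mean difference between the changes of -0.25 (-0.95 to 0.67). MEP1 was at least 2-fold apart at 2 h alone, at 1.74 in kfc1 and 0.48 in wild type, and its mean difference was 0.42 (-0.05 to 1.25).

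GLT1, which returns glutamine nitrogen to glutamate, stood at -0.44 in kfc1 at 0 h and at 4.51, 4.41, 3.96, 3.84 and 3.69 at 2 to 12 h. In wild type it stood at 1.57, 1.83, 1.86, 2.31 and 2.39 at 2 to 12 h. The genotypes did not overlap after 0 h, with kfc1 highest at 2 h and wild type highest at 12 h. The share of all genes without such overlap was not computed. The mean difference was 2.09 (4.26-fold), and ranged from 2.94 at 2 h to 1.31 at 12 h. GLT1 started lower in kfc1, so its change from 0 h differed by more, 2.53 (1.75 to 3.39).

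GDH1 stood at 1.26 in kfc1 at 0 h and at 4.58, 3.57, 3.31, 3.37 and 3.29 at 2 to 12 h. In wild type it stood at 2.71, 2.23, 2.24, 2.77 and 2.90 over those hours, each below every later kfc1 value. How common such a separation was over all genes was not computed. Its mean difference of 1.06 (0.39 to 1.87) met the rule by little, and was 0.85 without the 2 h groups and 0.98 without the 4 h groups. Its start was higher in kfc1 by more than this mean, and the changes from 0 h differed by -0.20 (-0.87 to 0.61). GDH3, the second NADP-dependent isozyme gene, behaved otherwise. It stood at -0.87 in kfc1 at 0 h, and at 2 to 12 h between 0.90 and 1.85 in kfc1 and between 0.66 and 1.39 in wild type. Its mean difference was 0.30 (0.07 to 0.55), while its change from 0 h was 1.17 (0.94 to 1.42) larger in kfc1, which met the rule. Of all genes, 3.18% were higher by the rule in this difference between changes, as were 3 of the 8 (MEP2, GLT1 and GDH3).

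GLN1, the glutamine synthetase gene, moved least over time in this arm. It stood at 0.80 in kfc1 at 0 h and between 0.19 and 0.97 later, and between -0.10 and 0.61 in wild type at 2 to 12 h. The mean difference was 0.35 (0.13 to 0.59), below the rule. GDH2, the catabolic enzyme gene, was the 1 gene of the 8 that was lower than at 0 h by the rule in both genotypes. It stood at -1.92, -1.16, -1.20, -1.44 and -1.88 at 2 to 12 h in kfc1, against -0.62, -0.97, -1.35, -1.49 and -1.68 in wild type. The genotypes were within 0.20 of each other except at 2 h, where the difference was -1.30.

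Against their own 0 h groups, 5 of the 8 genes in kfc1 (MEP1, MEP2, GDH1, GDH3 and GLT1) and 4 of the 8 in wild type (the same without MEP1) were higher without overexpression, and GDH2 was lower in each. In kfc1 6.87% of all genes were higher and 4.11% lower, against 2.37% and 1.29% in wild type. The mean change of MEP2 was 6.97 in kfc1 and 4.22 in wild type, that of GLT1 4.53 and 1.99, and that of GDH3 2.24 and 1.07. For GDH1 it was 2.37 in kfc1 and 2.57 in wild type. The wild-type call of GDH3 needed the 12 h group, without which its mean was 0.99, and MEP3 in wild type (0.90) reached 1.01 without the 6 h group.

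The 0 h groups themselves differed, and this touches every change measured from them. Without overexpression, MEP3 (1.15) and GDH1 (1.26) were higher in kfc1 at 0 h, 2 of the 8 genes against 0.507% of all genes. With IME1, GDH1 alone was, at 0.63 in kfc1 and -2.17 in wild type, where 10.7% of all genes were higher. With IME1 and RIM4, MEP3 was lower in kfc1, at -0.88 against 0.64 in wild type, where 2.37% of all genes were lower. The genotype difference of MEP3 at 0 h was thus of opposite sign in these arms. Over the 6 groups at 0 h, GDH1 ranged over 3.43, MEP3 over 2.02, GLT1 over 1.28, GDH3 over 1.10 and GLN1 over 0.80. MEP2 ranged over 0.63, GDH2 over 0.58 and MEP1 over 0.53, and the median over all genes was 0.77. The wild-type IME1 group at 0 h also stood apart over all genes, with an SD of 0.937 over genes while the 4 other 0 h groups with ratios had SDs of 0.344 to 0.675. The genotype differences at 2 to 12 h with IME1 do not use that group. IME1 RNA differed between the genotypes at 0 h as well. With PzevIME1 it stood at 1.94 in wild type and 0.59 in kfc1 at 0 h, and at 3.05 in both at 2 h. With PzevIME1 and PzevRIM4 it stood at 0.14 in wild type and 1.22 in kfc1 at 0 h. Its part in the values of the 8 genes was not tested.

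**Figure D2:**
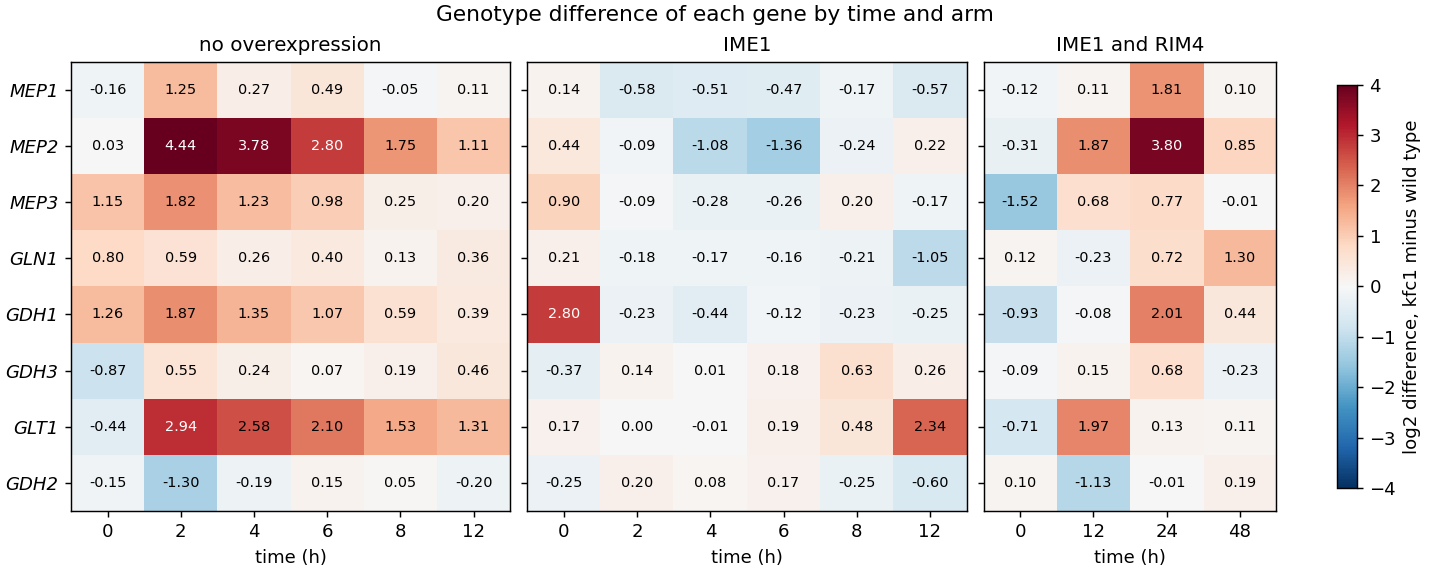
Log2 difference of kfc1 minus wild type for the 8 genes (rows) at each time in hours (columns), in the arms without overexpression, with IME1 and with IME1 and RIM4. The printed number and the colour both give the difference, red being higher in kfc1. MEP2 and GLT1 are red from 2 to 12 h without overexpression. Most IME1 values lie near 0, GLT1 at 12 h with IME1 stands at 2.34, and GDH1 at 0 h with IME1 is higher still.

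With IME1 overexpressed, 0 of the 8 genes were higher and 0 lower in kfc1 than in wild type at 2 to 12 h by the rule, where 0.308% of all genes were higher and 0.4% lower. The median difference of the 8 was -0.19, against -0.01 for all genes. MEP2 stood at -0.16, 1.94, 2.46, 3.07, 5.54 and 5.80 at 0 to 12 h in kfc1, against -0.60, 2.03, 3.54, 4.44, 5.78 and 5.58 in wild type. The courses overlapped, with kfc1 lower at 4 h (difference -1.08) and at 6 h (-1.36), where 0.553% and 0.538% of all genes were at least 2-fold lower. GDH1 differed by -0.26 (-0.44 to -0.12), MEP1 by -0.46 (-0.58 to -0.17) and MEP3 by -0.12 (-0.28 to 0.20).

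**Figure D3:**
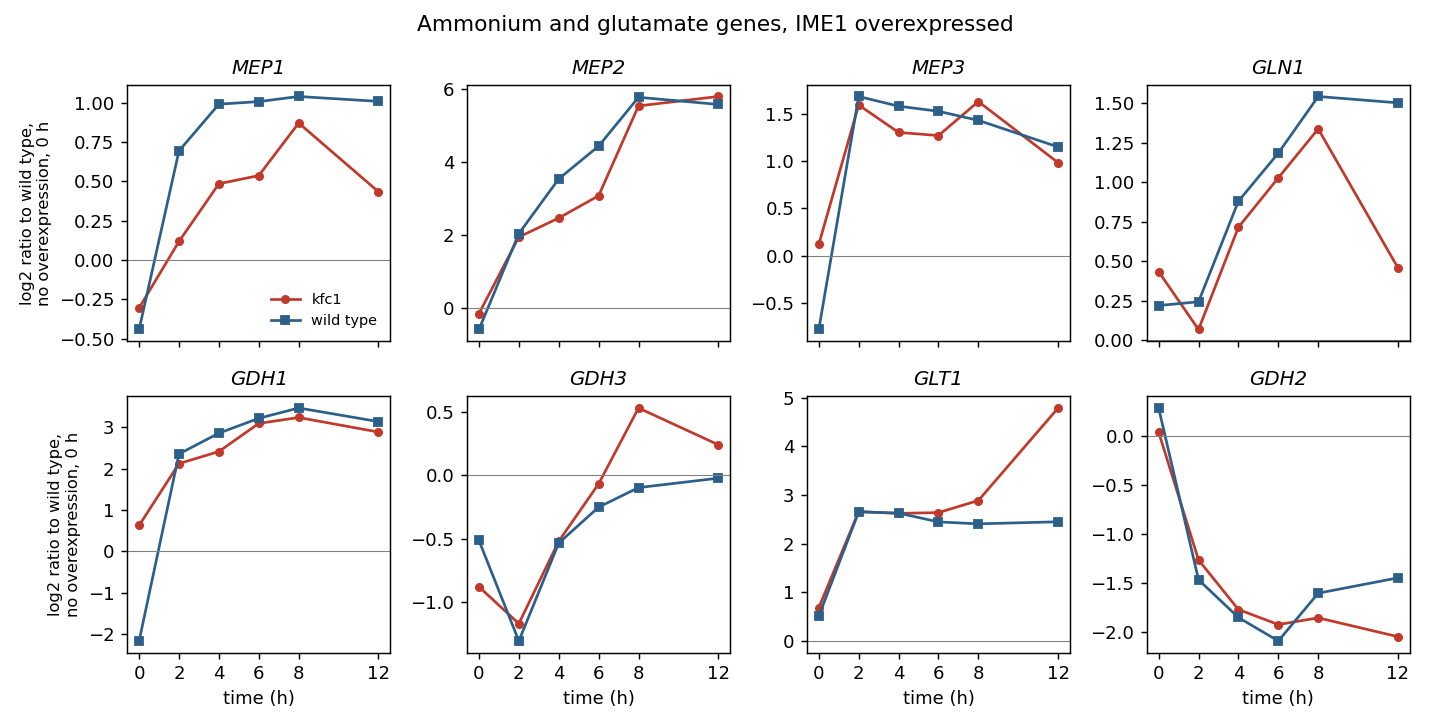
Log2 ratio to wild type without overexpression at 0 h (vertical axis, scaled separately in each panel) against time in hours for the 8 genes with IME1 overexpressed, in kfc1 (circles) and wild type (squares). GLT1 in kfc1 leaves the wild-type course at 12 h, where it stands at 4.79 against 2.45, and GLN1 in kfc1 stands at 0.46 against 1.5.

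GLT1 and GLN1 parted between the genotypes at the last time with IME1. GLT1 stood at 2.66, 2.62, 2.64, 2.89 and 4.79 at 2 to 12 h in kfc1, and at 2.65, 2.63, 2.45, 2.41 and 2.45 in wild type. Until 8 h the genotypes were within 0.48 of each other, and at 12 h kfc1 was 2.34 higher, where 4.29% of all genes were at least 1 higher. GLN1 stood at 0.07, 0.71, 1.03, 1.34 and 0.46 in kfc1, against 0.24, 0.88, 1.18, 1.54 and 1.5 in wild type. At 12 h the difference was -1.05, where 4.61% of all genes were at least 1 lower. Between 8 and 12 h GLT1 moved by 1.90 in kfc1 and 0.04 in wild type, and GLN1 by -0.88 in kfc1 and -0.04 in wild type.

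Over time with IME1, GDH2 was lower than at 0 h by the rule in both genotypes, with a mean of -1.80 (-2.08 to -1.30) in kfc1 and -1.97 (-2.37 to -1.73) in wild type. MEP2, MEP3, GDH1 and GLT1 were higher in both, and MEP1 in wild type only by this count, with means of 0.79 in kfc1 and 1.39 in wild type. In kfc1 9.69% of all genes were higher and 4.99% lower, against 24% and 12.6% in wild type. The GDH1 change was 2.13 in kfc1 and 5.18 in wild type, a difference of -3.06 (-3.24 to -2.92), and that of MEP3 was -1.02, so 2 of the 8 were lower in this difference against 12.3% of all genes. MEP3 fell short of the rule without the 4 h groups (-0.98) or the 6 h groups (-0.98). The unlike starts given above enter both genes. MEP2 (-0.95) met the rule without the 2 h (-1.05), 8 h (-1.02) or 12 h groups (-1.13). GLN1 in wild type (0.85) reached 1.06 above 0 h without the 2 h group.

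Against the same genotype without overexpression, 0 of the 8 genes were higher with IME1 in either genotype, where 4.06% of all genes were higher in kfc1 and 6.08% in wild type. GDH3 was lower with IME1 in both genotypes at every time from 2 to 12 h. Its mean was -1.57 (-2.76 to -0.93) in kfc1, where 2.84% of all genes were lower by the rule, and -1.52 (-2.35 to -1.20) in wild type, where 3.97% were. GDH3 with IME1 stood at -1.17, -0.52, -0.07, 0.53 and 0.24 at 2 to 12 h in kfc1 and at -1.31, -0.54, -0.25, -0.10 and -0.02 in wild type. Without overexpression its lowest value at those hours in either genotype was 0.66, above every value with IME1. The share of all genes with such a gap between the arms was not computed. MEP2 was lower with IME1 by the rule in kfc1, at -3.23 (-6.64 to -0.54), and differed by 0.06 (-2.11 to 1.24) in wild type. Leaving out 1 time added GDH1 in kfc1 (-1.04 without 6 h, -1.06 without 8 h), GLT1 in kfc1 (-1.48 without 12 h) and GLN1 in wild type (1.03 without 2 h). By the rule, 3 of the 8 genes had a lower response to IME1 in kfc1, namely MEP2 (-3.29), GDH1 (-1.31) and MEP3 (-1.01), against 1.87% of all genes, and 0 had a higher one, against 0.648%. GLT1 averaged -1.49 there but changed sign, from -2.94 at 2 h to 1.03 at 12 h. MEP3 fell short without the 2 h (-0.79), 4 h (-0.89) or 6 h groups (-0.96). Without the 12 h groups GLT1 (-2.12), and without the 8 h groups MEP1 (-1.06), had lower responses too. These differences restate the genotype differences of the arms.

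Marker genes moved with these contrasts. With IME1, LEU2, a leucine synthesis gene often used as a strain marker, had no value in kfc1 and lay at 6.87 to 7.91 in wild type. URA3, a uracil synthesis gene used likewise, lay at 4.47 to 8.25 in kfc1 and at 6.90 to 7.94 in wild type with IME1. With IME1 and RIM4 it lay at 5.77 to 9.19 in kfc1, and wild type had 1 value, 1.13 at 24 h. Without overexpression URA3 was within 0.06 of 0 wherever it had a value. The part of these markers in the values of the 8 genes was not tested.

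With IME1 and RIM4 overexpressed together, 1 of the 8 genes, MEP2, was higher in kfc1 at 12 to 48 h by the rule and 0 were lower, where 1.49% of all genes were higher and 0.922% lower. MEP2 stood at 7.05, 5.35 and 3.92 at 12, 24 and 48 h in kfc1, against 5.18, 1.56 and 3.07 in wild type. It was higher in kfc1 at each of these times, with a mean difference of 2.17 (4.51-fold), from 0.85 at 48 h to 3.80 at 24 h (13.9-fold), and of 1.36 without the 24 h groups. Without the 12 h groups GLN1 (1.01) and GDH1 (1.23) met the rule as well, and GLT1 did without the 24 h groups (1.04) or the 48 h groups (1.05). In this arm wild type was not labelled as re-used. Among these times kfc1 was lowest at 48 h and wild type at 24 h.

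**Figure D4:**
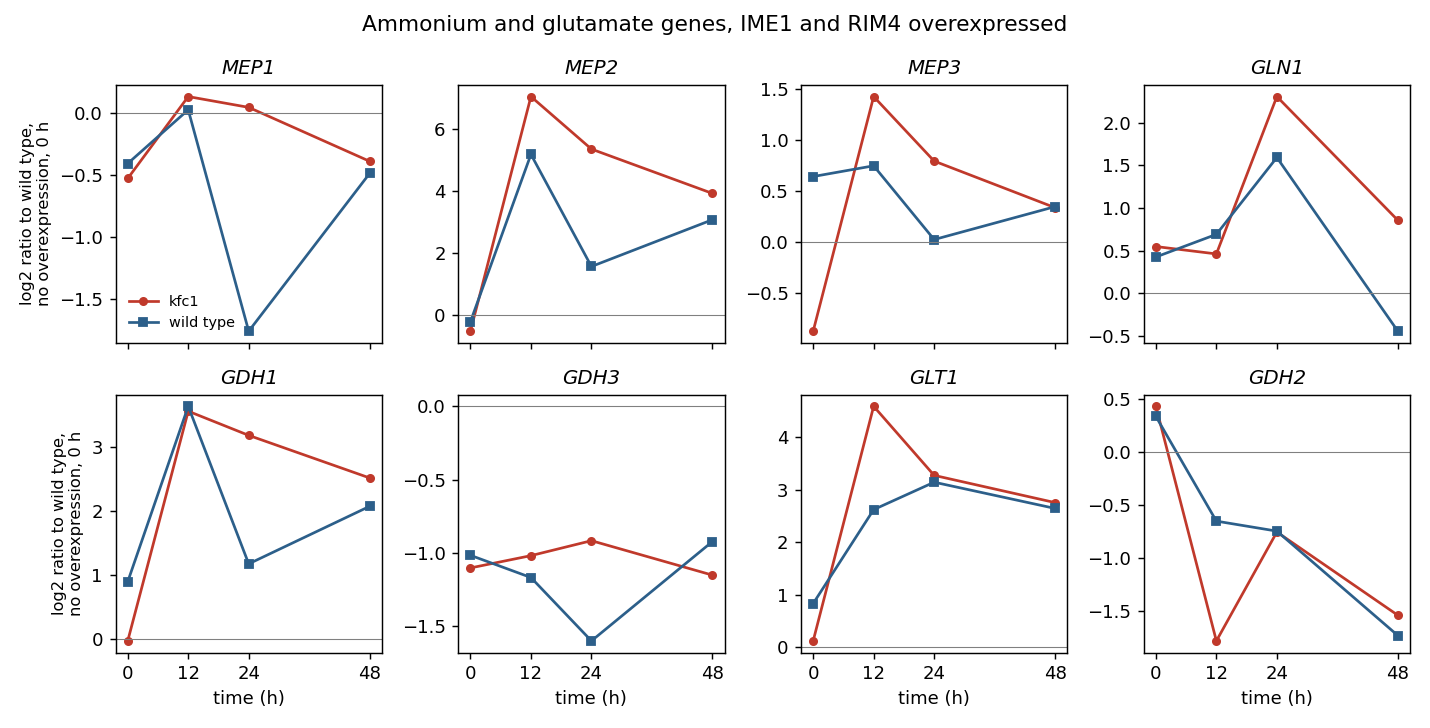
Log2 ratio to wild type without overexpression at 0 h (vertical axis, scaled separately in each panel) against time in hours for the 8 genes with IME1 and RIM4 overexpressed, in kfc1 (circles) and wild type (squares). Wild type dips at 24 h for MEP1, MEP2, MEP3, GDH1 and GDH3, where kfc1 stays higher. GLT1 in kfc1 is at least 2-fold higher at 12 h and within 0.13 of wild type at 24 and 48 h.

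Among 12, 24 and 48 h, wild type was lowest at 24 h for MEP1, MEP2, MEP3, GDH1 and GDH3. It was highest at 24 h for GLN1 and GLT1, and lowest at 48 h for GDH2. The share of all genes with a dip at 24 h was not computed. GDH1 stood at 3.56, 3.18 and 2.52 at 12, 24 and 48 h in kfc1, against 3.64, 1.17 and 2.07 in wild type. MEP1 stood at 0.13, 0.05 and -0.39 in kfc1, against 0.03, -1.76 and -0.49 in wild type. At 24 h alone MEP1 (1.81), MEP2 (3.80) and GDH1 (2.01) were at least 2-fold higher in kfc1, 3 of the 8 against 4.07% of all genes, and the genotypes were within 0.11 of each other for MEP1 and GDH1 at 12 h. MEP3 differed by 0.68, 0.77 and -0.01 over the 3 times. GDH3 stood between -1.15 and -0.92 in kfc1 and between -1.60 and -0.92 in wild type, and at 12 h its value less that with IME1 alone was -1.26 in kfc1 and -1.15 in wild type. Of all genes, 2.72% were at least 2-fold lower there in kfc1 and 5.97% in wild type. GDH3 was already low before that in this arm, with 0 h values of -1.10 (kfc1) and -1.02 (wild type). From 0 to 12 h it moved by only 0.08 (kfc1) and -0.15 (wild type). With IME1 alone it rose over those hours, from -0.88 to 0.24 (kfc1) and from -0.51 to -0.02 (wild type). The part of added RIM4 in the 12 h gap was not tested.

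GLT1 differed at 12 h and hardly later, at 4.59, 3.27 and 2.75 in kfc1 against 2.62, 3.14 and 2.64 in wild type at 12, 24 and 48 h. The 12 h difference was 1.97, where 8.06% of all genes were at least 1 higher. At 12 h GDH2 was at -1.78 in kfc1, against -0.65 in wild type, a difference of -1.13 where 11.1% of all genes were at least 1 lower, and at 24 h it was at -0.76 in kfc1 and -0.75 in wild type. GLN1 peaked at 24 h in both genotypes, at 0.46, 2.31 and 0.86 in kfc1 against 0.69, 1.59 and -0.45 in wild type. Its difference of 1.30 at 48 h was the 1 among the 8 genes that was at least 2-fold there, against 3.13% of all genes.

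Against their own 0 h groups with IME1 and RIM4, MEP2, MEP3, GDH1 and GLT1 were higher and GDH2 lower by the rule in kfc1, where 20.4% of all genes were higher and 13.2% lower. For wild type the higher genes were MEP2, GDH1 and GLT1 and the lower one GDH2, where 15.5% of all genes were higher and 11.4% lower. GDH1 in wild type was at 0.73 without the 12 h group, and GLN1 in kfc1 (0.66) at 1.03 without it. GDH2 was thus lower than at 0 h by the rule in each of the 6 courses, with means between -1.97 and -1.22. MEP2, GDH1 and GLT1 were higher by the rule in each of them. The share of all genes that met the rule in all 6 courses was not computed. In the difference of kfc1 minus wild type between these changes, MEP2 (2.48), MEP3 (2.00), GDH1 (1.72) and GLT1 (1.45) were higher in kfc1, 4 of the 8 against 3.91% of all genes, and the lower kfc1 starts of these 4 genes enter those values. GLT1 fell short without the 12 h groups (0.83), GDH1 was at 1.11 without the 24 h groups, and MEP1 (0.79) reached 1.07 without the 12 h groups and 1.08 without the 48 h groups. At 12 h MEP2 was higher with IME1 and RIM4 than with IME1 alone by 1.25 in kfc1, where 2.06% of all genes were at least 1 higher, and differed by -0.40 in wild type, where 8.98% were. In wild type, the samples with IME1 alone were marked as re-used and those with both were not. At 12 h, wild type also had values of URA3 and LEU2 with IME1 alone only. Added RIM4 cannot be told apart from these differences in wild type.

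**Figure D5:**
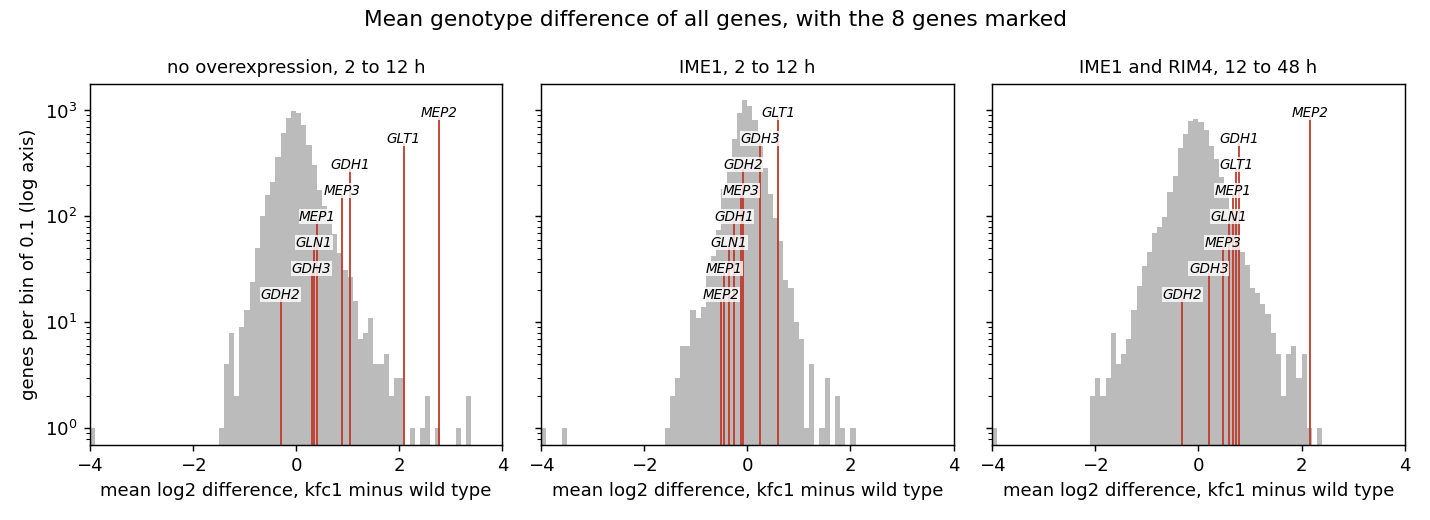
Number of genes per bin of 0.1 (vertical log axis) by mean log2 difference of kfc1 minus wild type over the later time points (horizontal axis, values beyond 4 units drawn at the edge), in the 3 arms, with red lines at the means of the 8 genes. MEP2 (2.78) and GLT1 (2.09) lie at the far right without overexpression, all 8 lie between -0.51 and 0.60 with IME1, and MEP2 (2.17) is again far right with IME1 and RIM4.

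Related genes of the pathway were counted in 5 lists. Of 8 GATA factors and other nitrogen regulators, 2 were higher in kfc1 without overexpression at 2 to 12 h and 0 lower, namely DAL80, a GATA repressor gene (3.32), and GAT1, a GATA activator gene (1.72). Of all genes, 1.43% were higher and 0.37% lower in this comparison. GLN3, the other GATA activator gene, averaged 0.52. The same 2 genes met the rule with IME1 and RIM4, at 2.02 and 1.37, where 1.49% of all genes were higher, and 0 of the 8 regulators did with IME1. The list median was 0.32 without overexpression, 0.03 with IME1 and 0.42 with IME1 and RIM4, against -0.02, -0.01 and -0.03 for all genes.

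The supply of 2-oxoglutarate, the carbon skeleton of glutamate, and the retrograde pathway that adjusts it had 2 of 17 genes higher in kfc1 without overexpression and 0 lower, where 1.43% and 0.37% of all genes were. They were IDH1, for a subunit of mitochondrial isocitrate dehydrogenase (1.11, 0.64 to 1.56), and the aconitase gene ACO1 (1.03, 0.59 to 1.41). IDH2, the partner subunit gene of IDH1, averaged 0.84. With IME1, and with IME1 and RIM4, 0 of 17 met the rule in either direction. The list medians were 0.21, 0.06 and 0.01 in the 3 arms.

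Of 12 enzymes that take the amide nitrogen of glutamine, 2 were higher in kfc1 without overexpression and 0 lower, against the same 1.43% and 0.37% of all genes. With IME1, and with IME1 and RIM4, 0 of 12 met the rule. Among them the asparagine synthetase gene ASN1 averaged -0.64 with IME1 and 0.92 with IME1 and RIM4. Of 8 genes of glutamate release and the GABA shunt, the GABA permease gene UGA4 (2.54) and the general amino acid permease gene GAP1 (2.09) were higher without overexpression, 2 of 8 against 1.43% of all genes. With IME1 and RIM4, 4 of 8 were higher, against 1.49% of all genes: the proline oxidase gene PUT1 (2.31), GAP1 (2.05), UGA4 (1.58) and the proline permease gene PUT4 (1.04). With IME1 0 of 8 were. Of 5 genes for Mep regulators and the acetate and ammonium transporter family, 0 met the rule in any arm after 0 h. Among them NPR1, which encodes the kinase that keeps Mep2 active, averaged 0.34 without overexpression. The transporter genes ADY2 (-1.70) and ATO3 (-1.62) were lower in kfc1 at 0 h without overexpression, where 1.14% of all genes were lower. At 0 h ADY2 differed by -1.17 with IME1 and by 1.31 with IME1 and RIM4.

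Across 31 conditions, leaving out the one that is 0 for all genes, the profiles of the 8 genes fell into like and unlike pairs. Pearson's r was 0.88 between MEP2 and GDH1, 0.84 between MEP2 and GLT1, 0.80 between MEP3 and GDH1 and 0.74 between GDH1 and GLT1. GDH2 ran opposite to most, with r of -0.76 to GDH1, -0.72 to GLT1 and -0.70 to MEP2. GLN1 had r between -0.17 and 0.22 with each of the others. The isozyme genes GDH1 and GDH3 had r of 0.45. All points share 1 start and come from 6 courses, so they are not independent and these values are descriptions.

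Of the 6479 genes with a value in every condition, those most like MEP2 were GAP1 (r 0.98), UGA4 (0.97) and the urea amidolyase gene DUR12 (0.97). Nearest to GDH1 were PMT3 (0.93), URK1 (0.91) and DAL3 (0.90), and nearest to GLT1 were ISA1, YIR030W-A and DUG3 (0.90 each). MEP3 was most like AGP1 (0.92), an amino acid permease gene, then DSS4 (0.88) and YLR179C (0.87). MEP1 was most like HPA3 (0.84), ASN1 (0.83) and GCN4 (0.83), and GDH3 most like SSL1 (0.86), GPD2 (0.86) and YDR261C-D (0.84). GDH2 was most like SEC6 (0.86), PDX1 and RGA2 (0.85 each). The nearest genes to GLN1, TRS33 (0.71), YEA6 (0.70) and PEA2 (0.70), were less like it than the nearest genes of any other of the 8.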

How the data were processed

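The authors sequenced polyadenylated RNA in 64 samples. Of tools, BWA and DESeq2 are listed in the submitters' processing notes, with no roles, beside the build sacCer3. Counting, annotation, shrinkage and read length are not known here. The authors deposited 1 table of log2 ratios with 1 column per condition, replicates combined, for 6660 genes and 4 empty lines. The header does not name the base of the logarithm, which was taken as 2. Without counts the depth, and so the precision of each value, is unknown.

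Of the columns, 5 (kfc1 without overexpression, 2 to 12 h) were taken to be relative to kfc1 at 0 h, and were put on the common scale by adding that column. Left as deposited, VIR1 would stand between -0.00 and 1.03 in them, although it stood at -5.73 in kfc1 at 0 h. Less wild type, these deposited columns had correlations over genes of -0.72 to -0.37 with kfc1 at 0 h, and of 0.11 to 0.24 after the addition. All other columns were taken to be relative to wild type at 0 h without overexpression. If the ratios were shrunken, low genes are not strictly comparable between columns.

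The plan, made for values of each replicate, had foreseen a model with tests. Since the table holds combined ratios, ratios were subtracted over the whole table in 20 comparisons instead, with Python 3.11.15 and pandas 2.3.3, and no p-value is given. The 8 genes, the 5 further lists (50 genes, all measured) and the rule were chosen with earlier results of these data known. Symbols came from the RefSeq R64 annotation, in which 5986 identifiers matched. Named were the 8 genes, members of the lists, and the 3 genes of highest correlation with each of the 8. VIR1, IME1, RIM4, URA3 and LEU2 only checked the columns. The genes behind 1 list's count without overexpression are not reported here. The upstream stretches end 100 bases ahead of the start codon to leave out most of the transcribed leader, a choice made after stretches ending at the start codon had been seen. Alternatives were centred columns, no same-sign rule, complete genes only, single times left out, the 5 columns as deposited and, added after seeing the data, a 1.5-fold limit.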

Additional observations from a re-analysis of the deposited data

Results flagged for a closer look

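Genes were picked out where the genotype difference had 1 sign at every later time in 1 arm and the opposite sign at every later time in another. The difference between arms was not tested, since each condition has 1 combined value. For kfc1 minus wild type, GDH1 averaged -0.26 with IME1 and 1.06 without overexpression. GLN1 averaged -0.35 with IME1 and 0.35 without overexpression. Without the kfc1 value at 0 h added to the deposited columns, the means without overexpression would be -0.20 for GDH1 and -0.46 for GLN1, so the opposite signs of both rest on that addition. MEP1 averaged 0.67 with IME1 and RIM4 and -0.46 with IME1. Of all genes, 3.66% had such opposite signs between the arms with IME1 and without overexpression, and 4.91% between IME1 with RIM4 and IME1 alone.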

How the results depend on the processing

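No paired analysis was possible because the table holds 1 combined ratio per condition; for the same reason neither a replicate block nor leaving out a replicate was run. Of 294 recomputed counts of the 8 genes, 271 stayed within 1.5 times. Of these, 40 used complete genes only and could not change, since the 8 genes have every value. A count that went from 2 to 3 was also taken as staying, so single genes could gain or lose the rule unseen. With the 5 kfc1 columns as deposited, which leaves out the unlike kfc1 start, the GDH1 difference without overexpression turned to -0.20, that of GLN1 (0.35) to -0.46 and that of MEP3 (0.90) to -0.25, and the MEP3 difference in the response to IME1 to 0.13 (GDH1 there to -0.05). Less wild type, these columns restate the difference between the changes from 0 h given above. They gave 1 gene higher with IME1 in kfc1 in place of 0, and 460 of all genes in place of 263. They also gave 2 genes lower over time in kfc1 in place of 1, and 507 of all genes in place of 267. In the change over time they gave 3 lower in place of 0, and 278 of all genes in place of 43. If the columns are relative to kfc1 at 0 h, these changes over time take off the kfc1 start again, so they do not show it left out. With IME1 and RIM4, the count higher in kfc1 at 12 to 48 h was 1, and 3 without the 12 h groups (GLN1 1.01 and GDH1 1.23 added), 2 without the 24 h groups (GLT1 1.04) and 2 without the 48 h groups (GLT1 1.05). Without the 2 h groups 1 gene was higher with IME1 in wild type, in place of 0. For the change over time with IME1, 2 genes were lower, and 1 with centred columns, without the 4 h groups or without the 6 h groups. Centred columns gave 2 genes lower with RIM4 and IME1 than with IME1 in wild type, in place of 1. Over all genes, these counts with centred columns or times left out stayed within 1.5 times. The exceptions, without the 12 h or 48 h groups, are given below. With a 1.5-fold limit the count at 0 h was 1 lower without overexpression (0 at 2-fold), where 296 of 6510 genes were. At 0 h it was 2 higher with IME1 (1), where 1375 of 6503 genes were. With IME1 and RIM4 it was 3 lower at 0 h (1), where 777 of 6505 genes were. That limit gave 3 higher in kfc1 at 12 to 48 h (1), where 339 of 6509 genes were. With IME1 against none it gave 4 lower in kfc1 (2), where 432 of 6483 genes were. In wild type it gave 1 higher there (0), where 887 of 6497 genes were. For IME1 and RIM4 against IME1 it gave 2 higher in kfc1 (1), where 456 of 6514 genes were. In wild type it gave 1 higher (0) and 3 lower (1), where 1151 and 927 of 6511 genes were. In the change over time with IME1 it gave 1 higher (0) and 4 lower (2), where 894 and 1478 of 6498 genes were. In the response to IME1 it gave 5 lower (3), where 307 of 6479 genes were.

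Over all genes, 60 of 294 counts moved by more than 1.5 times. At 12 to 48 h with IME1 and RIM4, 194 genes were higher in kfc1 without the 12 h groups and 176 without the 48 h groups, against 97 in all. With IME1, 31 were higher without the 2 h groups and 13 without the 12 h groups, against 20. With the 5 columns as deposited, 206 genes were higher in kfc1 without overexpression, against 93, which restates the difference between the changes from 0 h. Column means lay between -0.160 and 0.176. Neither depth nor replicate spread can be judged from the ratios, so differences near the 2-fold limit, such as those of GDH1 and MEP3, are the least certain.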
